A study of Mus musculus with 54 samples.

Results

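Naive CD4+ T cells that lack CD6 were compared with wild-type (WT) cells after 20 h of stimulation through the T cell receptor (TCR). The comparison takes 6 samples, 3 Cd6-/- and 3 WT, which the sample labels identify by genotype, time and replicate number. They are 6 of the 54 RNA-sequencing samples of the study and 6 of the 36 samples of its CD5/CD6 experiment. That experiment also holds Cd5-/- and Cd5-/-Cd6-/- cells, unstimulated cells and cells stimulated for 4 h, with 3 samples in each condition, and the other samples belong to an experiment on the adaptor LAT that is not used here.

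Every group at 20 h was naive CD4+ T cells of C57BL/6 background, taken from pooled lymph nodes and spleens of mice aged 8 to 10 weeks by magnetic removal of other cells, and cultured with plate-bound anti-CD3 at 3 µg/ml and soluble anti-CD28 at 1 µg/ml. The WT group carried no targeted allele. The Cd6-/- mice were 1 line made with Cas9 in C57BL/6JRj embryos, in which a short deletion at the beginning of Cd6 takes away the start codon. The Cd5-/-Cd6-/- mice were a separate Cas9 line with a longer deletion, so the double knockout is not a cross of the single lines, and the Cd5-/- mice were an older line backcrossed to C57BL/6. The replicates are described as biological, without saying which mice entered which sample, so the p-values measure the spread between these samples.

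CD6 is a surface receptor of T cells with scavenger receptor cysteine-rich domains outside the cell and a long tail of tyrosines inside it. Its known ligands are CD166, encoded by Alcam, and CD318, encoded by Cdcp1. When the TCR is engaged, the tyrosines of CD6 are phosphorylated and bind adaptors such as SLP-76, and both stimulatory and inhibitory roles have been described for it. Its close relative CD5, encoded by the neighboring gene, is known as a negative regulator of TCR signaling.

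The guides used to make the Cd6-/- line are shown because they mark the part of the gene that was targeted, for a gene whose RNA was still read in these cells. Read from the GRCm38 genome, both match within exon 1 of Cd6, a gene of 12 exons in the transcript ENSMUST00000039043.14 on the minus strand of chromosome 19. The capitals mark the PAM, the bases next to the target that Cas9 requires, and the third sequence is the second site on the coding strand with the start codon in capitals.
CD6-1: ggagacggttgtgccaccgaTGG
CD6-2: ccaaggaagagccacatgtcTGG
CD6-2 sense: ccagacATGtggctcttccttgg
The CD6-1 site lies at chr19:10829917-10829939 on the plus strand, in the 5′ UTR. The CD6-2 site lies at chr19:10829840-10829862 on the plus strand and overlaps the start codon, which is at 10829854 to 10829856. Exon 1 runs from 10829808 to 10829964. The counts are summed over the whole gene, so they do not show whether the reads of Cd6-/- cells include exon 1.

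Libraries of the CD5/CD6 experiment held from 20554354 to 45222554 counts, and those of the 6 compared samples from 23172270 to 35423286. Levels are given as CPM, counts scaled by library size and by the TMM factor, which sets the bulk of the genes level between libraries. A floor of 3 counts corresponded to between 0.0847 and 0.129 CPM in the 6 libraries, which covers counting error only. Differences are log2 fold changes of Cd6-/- over WT with their SE from edgeR's quasi-likelihood test over all 36 libraries, with Benjamini-Hochberg adjustment over the 32290 genes tested. Calls required both an adjusted p under 0.05 and a change of more than 2-fold. The CD4+ T cell markers were present in all 6 libraries, with a sum over 12 genes between 4833 and 5434 CPM in WT cells and between 4931 and 5223 CPM in Cd6-/- cells, against sums of 17.0 to 30.8 CPM for Cd8a and Cd8b1. Among the unstimulated cells, the library labelled Cd5-/- replicate 2 held 719 CPM of Cd5 and 329 CPM of Cd6, and the library labelled Cd6-/- replicate 2 held 172 and 1203 CPM, so that both go against their labels. They are not among the compared samples, but they enter the common estimate of the spread, and each result that changes without them is given with that value.

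Cd6 itself separated the groups. Its level was 937, 1131 and 1044 CPM in WT replicates 1, 2 and 3, and 304, 315 and 257 CPM in Cd6-/- replicates 1, 2 and 3. All the Cd6-/- libraries were below all the WT libraries, and none was near 0. The difference was -1.83 (SE 0.26) on the log2 scale (edgeR adjusted p = 2.27e-05), and the ratio of the group means was 0.282. With edgeR's filter on low counts, the log2 fold change was -1.82 (SE 0.37) and the adjusted p 0.375, and without the unstimulated libraries that go against their labels it was -1.82 (SE 0.16) with an adjusted p of 2.3e-19. The Cd5-/-Cd6-/- cells at 20 h, by contrast, held 0.492 ± 0.0540 CPM of Cd6 (SD, n = 3). At 4 h, Cd6 stood at 264 ± 42.7 CPM in Cd6-/- and 922 ± 78.2 CPM in WT cells (SD, n = 3 each), a ratio of 0.286.

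Genes around Cd6 on the chromosome did not show such a difference. Within 500 kb, 36 other genes had reads, 14 of them averaged 50 or more counts over the 6 libraries, and 0 were called, where 0.0186% of all genes tested were. Cd5, the neighboring gene, stood at 1004, 1257 and 1140 CPM in WT and at 1045, 1213 and 1030 CPM in Cd6-/- replicates. These values overlap, with a log2 fold change of -0.05 and an interval from -0.68 to 0.58 (95%). A430093F15Rik, the transcribed locus between Cd5 and Cd6, had a log2 fold change of 0.01 (SE 0.18). Among the 14 genes, the lowest value was -0.22, for Tmem216, and the highest was 0.75 (SE 0.27), or 0.38 without Cd6-/- replicate 3, for AW112010, which held 68.8, 78.7 and 127 CPM in WT and 93.7, 144 and 224 CPM in Cd6-/- replicates.

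Few genes other than Cd6 were called. Of the 32290 genes tested, 6 (0.0186%) passed both thresholds, 5 higher and 1 lower in Cd6-/- cells, and 541 had an unadjusted p under 0.05. Of the 10194 genes with at least 50 mean counts, 96 had an unadjusted edgeR p under 0.05. Both are below the share of 0.05 that would fall there if no gene differed. The test was therefore conservative here, and few calls do not show that few genes differ. With the replicate number as a block, 8 genes (0.0248%) were called, 7 higher and 1 lower. Same-numbered libraries of both genotypes deviated together, with correlations of 0.753, 0.314 and 0.825 over 10194 genes, so the block was read beside each result. Without the unstimulated libraries that go against their labels, edgeR called 11 genes (0.0343%), which were the same 6 with Gm26917, Pros1, Il17a, Wdfy1 and Atf3, or 5 genes with the block. Il17a, the cytokine interleukin 17A, was near the floor, with 0, 0 and 0.190 CPM in WT and 0.0925, 0.591 and 1.37 CPM in Cd6-/- replicates, which overlap. With the filter on low counts, edgeR called 0 genes and 284 had an unadjusted p under 0.05. DESeq2 called 4 genes, namely Cd6, Xdh and the ribosomal RNA genes CT010467.1 and n-R5-8s1. In whole-culture RNA, fewer cells that express a gene and less of its RNA per cell cannot be told apart.

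**Figure D1:**
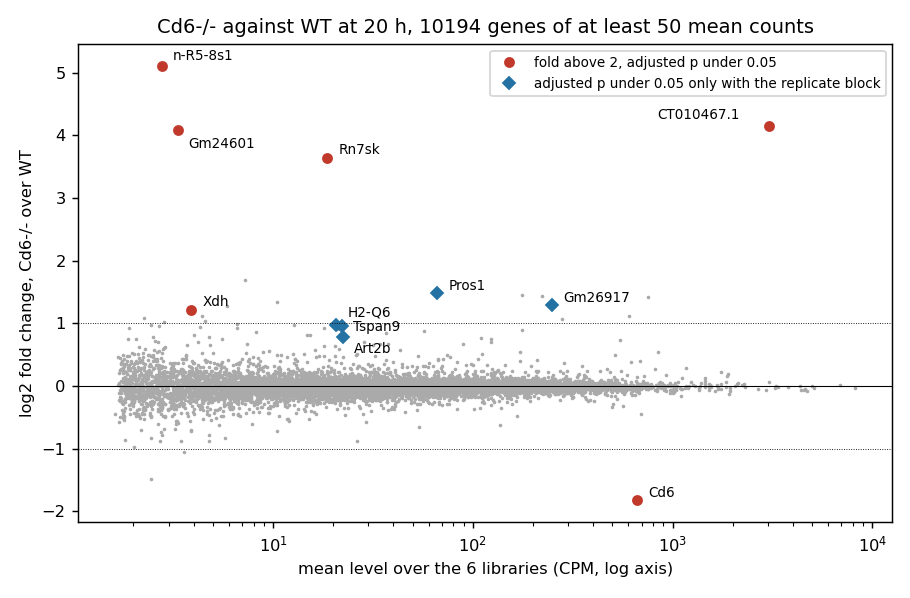
Log2 fold change of Cd6-/- over WT at 20 h (vertical axis) against the mean level over the 6 libraries in CPM (horizontal log axis) for the 10194 genes with at least 50 mean counts, each a point. Circles mark the 6 called genes and diamonds the genes with an adjusted p under 0.05 only with the replicate block; 22 genes lie more than 1 from 0.

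For most genes with enough reads, the difference between the genotypes was bounded below 2-fold. Among the 10194 genes that averaged 50 or more counts, the whole 95% interval lay inside 2-fold in either direction for 96.9%. The median SE of the log2 fold change was 0.18. From the 5th to the 95th percentile, the log2 fold changes ran from -0.20 to 0.19. Only 22 of these genes (0.216%) had a log2 fold change beyond 1 in either direction. The libraries did not overlap between genotypes at 174 genes that were higher in Cd6-/- cells (1.71%) and 219 that were lower (2.15%).

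Xdh, which encodes xanthine dehydrogenase, the enzyme of the last steps of purine breakdown to uric acid, was the called protein-coding gene other than Cd6. Its level was 1.80, 2.54 and 2.70 CPM in WT replicates and 3.21, 7.09 and 6.05 CPM in Cd6-/- replicates. The highest WT library was below the lowest Cd6-/- library, and Cd6-/- replicate 1 was the nearest to WT. Xdh was higher by 1.22 (SE 0.24) on the log2 scale, with an adjusted p of 0.0114 in edgeR, 0.00387 with the block and 0.0366 in DESeq2, against 0.391 with the filter on low counts. Without Cd6-/- replicate 3, its log2 fold change was 1.14 and its adjusted p 0.166, and it was then no longer called. Xdh also lost its call with library totals in place of TMM factors and with the 20 h or the compared libraries alone. The same held without WT replicate 1, without Cd6-/- replicate 2 and without replicate 2 of both genotypes. Where 0.0186% of all genes tested were called, 0 of the 20 other measured genes of purine metabolism were. They include Gart (log2 fold change -0.01), Atic (-0.01), Paics (-0.01), Hprt (0.00) and Ada (-0.06), which make, salvage or break down purines upstream of Xdh. This list was drawn up with the Xdh result known.

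Tspan9, Art2b and H2-Q6, genes of cell surface proteins, had an adjusted p under 0.05 with the block and a fold change under 2. Tspan9, a tetraspanin of the plasma membrane, stood at 14.1, 14.6 and 16.2 CPM in WT and 27.0, 31.2 and 29.2 CPM in Cd6-/- replicates. Every Cd6-/- library was well above every WT library. The log2 fold change of Tspan9 was 0.96 (SE 0.21), with an edgeR adjusted p of 0.0643, and 0.96 (SE 0.18) with an adjusted p of 0.008 under the block. Without Cd6-/- replicate 3, the value was 0.96 and the edgeR adjusted p 0.226. With the block over the libraries of all times and without that library, no gene other than Cd6 had an adjusted p under 0.05. In that fit Art2b and H2-Q6 did not pass either. With the block over the 20 h libraries alone and without that library, a fit chosen after seeing the data, 172 of 25749 genes passed. Among these were Tspan9 (log2 fold change 0.94), H2-Q6 (0.86) and Art2b (0.69), each below the fold threshold.

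Art2b, an ADP-ribosyltransferase anchored on the surface of T cells, gave 15.3, 15.9 and 18.1 CPM in WT and 24.7, 26.5 and 33.4 CPM in Cd6-/- replicates. The groups did not overlap. Its log2 fold change was 0.78 (SE 0.17), with an edgeR adjusted p of 0.0608, 0.00387 with the block and 0.0259 in DESeq2, below the fold threshold in each. H2-Q6, a nonclassical MHC class I gene, gave 14.0, 14.4 and 13.8 CPM in WT and 22.8, 32.9 and 26.8 CPM in Cd6-/- replicates, again without overlap. The log2 fold change of H2-Q6 was 0.97 (SE 0.23), with an edgeR adjusted p of 0.175, or 0.00387 with the block. Art2b and H2-Q6 have close relatives in the mouse genome, and how reads shared between relatives were counted is not given in the sources used here.

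Pros1, which encodes protein S, an anticoagulant and a ligand of the TAM receptors, was the remaining protein-coding gene called with the block. It stood at 29.7, 26.2 and 49.3 CPM in WT and at 41.9, 88.4 and 163 CPM in Cd6-/- replicates. The groups overlapped, since WT replicate 3 was above Cd6-/- replicate 1, while each Cd6-/- library was above the WT library of its number. The log2 fold change of Pros1 was 1.48 (SE 0.39) with an edgeR adjusted p of 0.600, and 1.31 (SE 0.28) with an adjusted p of 0.046 under the block. Without the unstimulated libraries that go against their labels, those adjusted p were 0.0016 and 0.0945. Without Cd6-/- replicate 3, the value was 0.90.

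**Figure D2:**
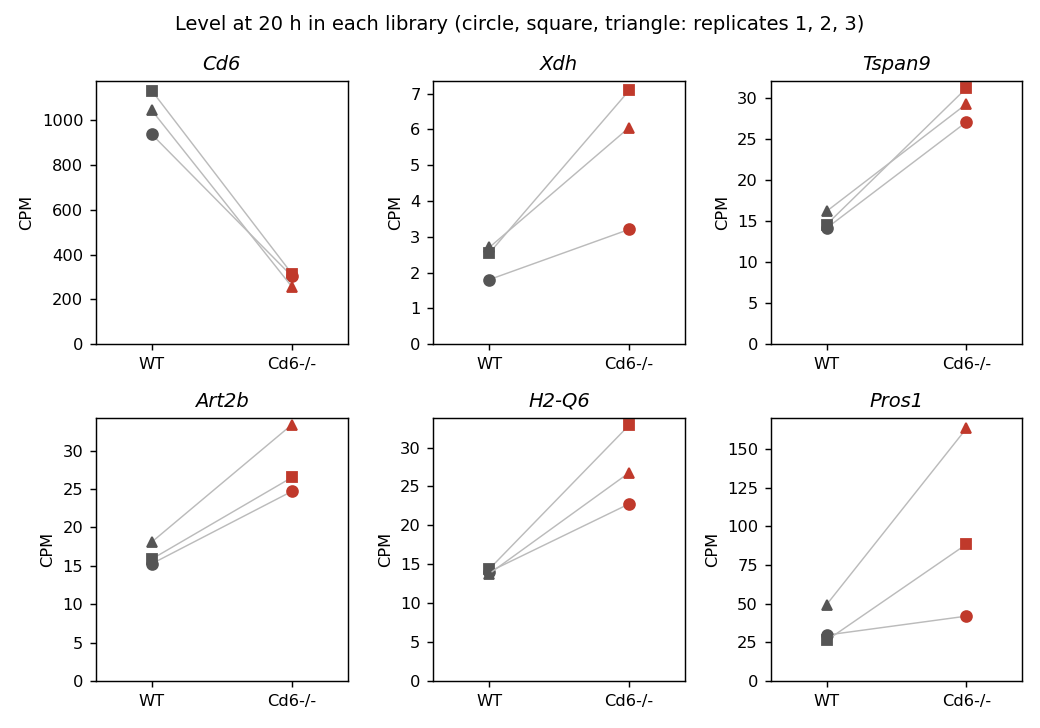
Level in CPM (vertical axes, each starting at 0) of 6 genes in the WT and Cd6-/- libraries at 20 h, with gray lines joining libraries of the same replicate number. Cd6 is lower in each Cd6-/- library, and Xdh, Tspan9, Art2b, H2-Q6 and Pros1 are higher in each Cd6-/- library than in the WT library of its number.

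The other 4 called genes rested on 1 library. CT010467.1, annotated as ribosomal RNA on chromosome 17, held 218, 344 and 407 CPM in WT and 205, 335 and 16709 CPM in Cd6-/- replicates. Only Cd6-/- replicate 3 differed from the rest. The small ribosomal RNA genes n-R5-8s1 and Gm24601 stood at 15.7 and 18.3 CPM in that library and at no more than 0.451 CPM in the other 5. Rn7sk, the 7SK RNA that holds back the elongation factor P-TEFb, stood at 101 CPM there and between 1.23 and 5.25 CPM in the others. Gm26917 is a noncoding RNA beside CT010467.1 on the other strand, called over all 36 libraries with the block but not without it. It stood at 750 CPM there and between 131 and 164 CPM in the others. With the block and without the unstimulated libraries that go against their labels, Gm26917 was not called. Rn7sk then had an edgeR adjusted p of 0.0784.

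These 5 RNAs together took 1.72% of the counts of Cd6-/- replicate 3 and between 0.0264% and 0.113% in each of the other 35 libraries of the experiment. Without this library, the log2 fold change was -0.26 for CT010467.1, -0.27 for Gm24601, -1.15 for Rn7sk, 0.92 for n-R5-8s1 and 0.12 for Gm26917, with an adjusted p of 1 for each. Cd6 was then the 1 gene called (0.0031%), both without the block, where 473 genes had an unadjusted p under 0.05, and with it, where 490 did. Ribosomal and 7SK RNA lack a poly(A) tail, and the libraries were made from mRNA. The same library also had the highest level of Igkc, an antibody light chain, at 5.39 CPM against 0.141 to 1.37 CPM in the other 5. What the excess of untailed RNA did to the other genes of this library was not tested beyond leaving it out.

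**Figure D3:**
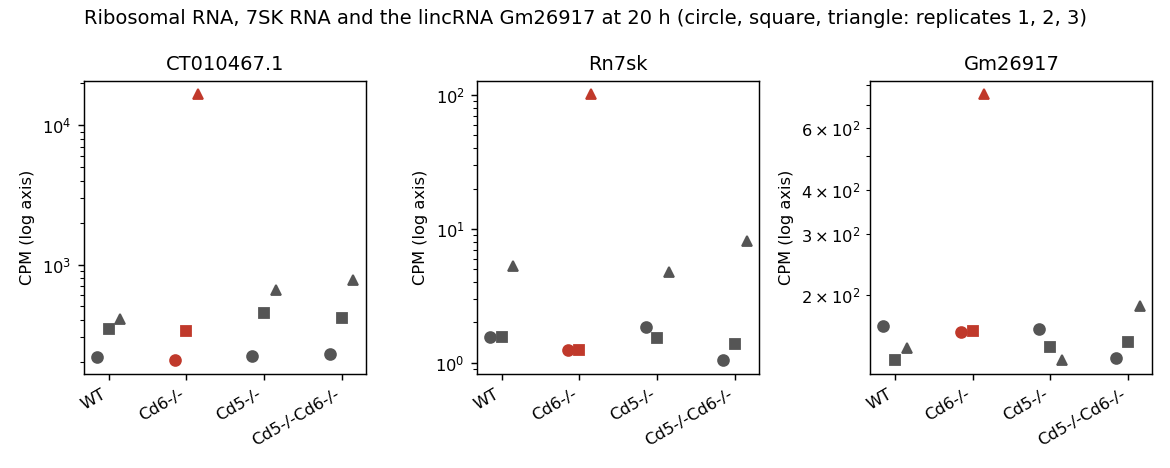
Level in CPM (vertical log axes) of CT010467.1, Rn7sk and Gm26917 in each library at 20 h, by genotype, with symbols for the replicate numbers. Cd6-/- replicate 3 stands above all the other libraries, at 16709, 101 and 750 CPM.

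The block changed more when only the 12 libraries at 20 h entered the fit, an alternative chosen after seeing the data. There, edgeR called 37 genes (0.142% of 26000), 28 higher and 9 lower. In this fit the prior had infinite weight, so a gene's spread came from the trend over genes of like level. The spread between its own replicates did not enter. The common dispersion was 0.00421 against 0.0431 without the block. Genes high in Cd6-/- replicate 3 alone were called here, as CT010467.1 was in the fits over all 36 libraries. A robust estimate of the spread gave 23 genes (0.0885%), and leaving out Cd6-/- replicate 3 gave 15 (0.0583%). Genes called in all 3 of these fits were 8, namely Cd6, Xdh, Oasl2, Ccr6, Nos2, Klhl4, Gm4841 and AC151990.1. Oasl2, an interferon-induced gene, stood at 0.479, 0.369 and 0.989 CPM in WT and 0.771, 2.89 and 1.33 CPM in Cd6-/- replicates. Ccr6, a chemokine receptor, stood at 2.88, 1.95 and 1.48 CPM in WT and 1.82, 0.656 and 0.530 CPM in Cd6-/- replicates. Both overlapped between the groups, both were low, and neither was called when all 36 libraries entered the fit.

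A further set of genes was named by size among those of at least 50 mean counts that moved the same way in all 3 replicate numbers with an unadjusted p under 0.01, which were 33 of 10194, 25 higher and 8 lower. Cd6, Xdh and Pros1 are among them. The others were not called without or with the block, while Atf3 and Wdfy1 were called in the fit without the 2 unstimulated libraries. In the fit of the 20 h libraries alone with the block, Ifng, Atf3, Ube2l6, Tmem35a, Casp4, Adh1 and Wdfy1 were called as well, and Tmem35a, Casp4 and Adh1 also with the robust spread. Ifng, the cytokine interferon gamma, stood at 0.958, 4.05 and 5.33 CPM in WT and 1.63, 14.2 and 17.5 CPM in Cd6-/- replicates, a log2 fold change of 1.70 (SE 0.61). The groups overlapped because replicate 1 was low in both genotypes. Atf3, a transcription factor of the stress response, gave 3.50, 6.63 and 7.57 CPM in WT and 5.21, 16.6 and 23.1 CPM in Cd6-/- replicates, a log2 fold change of 1.34, or 0.89 without Cd6-/- replicate 3. Casp4, the inflammatory caspase that senses lipopolysaccharide in the cytosol, did not overlap, with 5.13, 4.46 and 3.65 CPM in WT and 9.93, 8.50 and 7.82 CPM in Cd6-/- replicates. Its log2 fold change was 0.98 (SE 0.32). Ube2l6, the conjugating enzyme for ISG15, had a log2 fold change of 1.27, and Tmem35a, a chaperone of acetylcholine receptors, of 1.11. Both overlapped between the groups, and without Cd6-/- replicate 3 the values were 0.79 and 0.69.

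On the lower side, Adh1, an alcohol dehydrogenase, stood at 4.37, 6.12 and 4.11 CPM in WT and at 2.99, 2.59 and 1.37 CPM in Cd6-/- replicates, without overlap (log2 fold change -1.05, SE 0.26, edgeR adjusted p = 0.346). Fcrl1, an Fc receptor-like gene, gave 30.1, 43.2 and 28.9 CPM in WT and 17.8, 23.2 and 14.4 CPM in Cd6-/- replicates, also apart. Id3, an inhibitor of E protein transcription factors, gave 162, 171 and 165 CPM in WT and 124, 100.4 and 99.9 CPM in Cd6-/- replicates. Its WT libraries lay close together and well above all the Cd6-/- libraries, with a log2 fold change of -0.62 (SE 0.23). Tnfsf11, the cytokine RANKL, gave 173, 238 and 174 CPM in WT and 148, 141 and 128 CPM in Cd6-/- replicates. Wdfy1, an endosomal adaptor, had a log2 fold change of -1.48 that came from 1 WT library, since WT replicate 2 held 8.07 CPM and the other 5 libraries between 1.23 and 1.48 CPM. Wdfy1 is on the list of genes known to differ between C57BL/6 substrains and was the 1 of 4 listed genes with at least 50 mean counts. The part of substrain background in its values was not tested. Rab43 and Zfp467 had log2 fold changes of -0.97 and -0.70, the latter -0.46 without Cd6-/- replicate 3.

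The genes of the CD6 pathway itself were at like levels in both genotypes. Of 13 measured genes for ligands and partners of CD6, 0 were called. With 0.0186% of all genes tested called, 0 calls in this list or those below carries little weight. The median log2 fold change of the 13 was -0.01, the same as over all 10194 genes. Lcp2, which encodes SLP-76, stood at 488, 569 and 476 CPM in WT and 559, 576 and 498 CPM in Cd6-/- replicates. Zap70, the kinase at the TCR, gave 481, 505 and 499 CPM in WT and 441, 455 and 440 CPM in Cd6-/- replicates, which do not overlap but differ by -0.15 (SE 0.14). Alcam, the ligand gene expressed by the T cells too, had the highest value, 0.27 (SE 0.23), with 30.5, 35.3 and 26.8 CPM in WT and 36.8, 41.1 and 33.5 CPM in Cd6-/- replicates. Of 20 genes of the TCR complex and its proximal signaling, 0 were called and the median was 0.00, with Cd247 the highest at 0.37, or 0.22 without Cd6-/- replicate 3. Cd247 encodes the TCR zeta chain and stood at 243, 223 and 282 CPM in WT and 252, 330 and 388 CPM in Cd6-/- replicates.

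Negative regulators of the TCR were not called either, 0 of 24 where 0.0186% of all genes tested were, with a median of -0.03. At their upper end were Cblb, a ubiquitin ligase that restrains CD28-dependent activation, and Ptpn22, a phosphatase acting on Lck and ZAP-70. Cblb stood at 186, 190 and 165 CPM in WT and 224, 267 and 227 CPM in Cd6-/- replicates, and Ptpn22 at 76.6, 95.8 and 85.1 CPM and 99.9, 120 and 107 CPM. Neither overlapped between the groups, and their log2 fold changes were 0.41 (SE 0.15) and 0.34 (SE 0.14). Dusp4, a MAP kinase phosphatase, was at the lower end with -0.30, or -0.10 without Cd6-/- replicate 3.

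Activation and growth genes gave little difference. Among 21 activation and costimulatory receptors, 0 were called, where 0.0186% of all genes tested were, and the median was -0.04. Cd69, an early activation marker, stood at 278, 348 and 397 CPM in WT and 278, 337 and 376 CPM in Cd6-/- replicates. Tfrc, the transferrin receptor, had a log2 fold change of -0.05, and Cd200, a surface ligand that restrains myeloid cells, of -0.29 (SE 0.16) without overlap. Ly6a, which is induced by interferon, was the highest at 1.07 (SE 0.43), or 0.59 without Cd6-/- replicate 3, with 74.2, 150.1 and 318 CPM in WT and 106, 437 and 598 CPM in Cd6-/- replicates. Of 21 immediate early and activation transcription factors, 0 were called, with a median of -0.03, Nfkb2 at -0.20 (-0.10 without Cd6-/- replicate 3) and Irf8 at 0.38. The 30 DNA replication genes stayed between -0.13 and 0.07, and medians were -0.01 for 21 MYC target and ribosome biogenesis genes, 0.04 for 25 mitotic genes and -0.01 for 20 glycolytic genes, with 0 called in each.

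Interferon-stimulated genes lay above 0 as a group, though 0 were called over all 36 libraries, without or with the block. Of 28 listed genes, 18 had at least 50 mean counts, and 18 of these 18 had a log2 fold change above 0, where 45.1% of all genes did. Higher in Cd6-/- cells in 3 of 3 replicate numbers were 13 of them, against 11.8% of all genes. Without overlap between genotypes, 3 of the 18 were higher in Cd6-/- cells, against 1.71% of all genes. Their median was 0.32, and 0.26 without Cd6-/- replicate 3. Within replicate numbers 1, 2 and 3, the medians of the paired differences were 0.35, 0.56 and 0.25. Without replicate 3 of both genotypes, edgeR called 18 genes, 15 higher and 3 lower, among them Irf7, Usp18 and Oasl2. Usp18 was also called without WT replicate 3 alone. Without Cd6-/- replicate 3 alone, Cd6 was the 1 gene called.

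Oas3, an antiviral oligoadenylate synthetase, stood at 3.35, 3.98 and 3.20 CPM in WT and 6.75, 5.74 and 5.52 CPM in Cd6-/- replicates, without overlap. Usp18, which removes ISG15 from proteins, gave 2.88, 3.13 and 7.65 CPM in WT and 6.20, 8.66 and 11.0 CPM in Cd6-/- replicates. Irf7, the transcription factor that sustains interferon production, had the highest log2 fold change of the group, 0.96 (SE 0.37). Gbp2, a guanylate-binding protein, was the most abundant, at 457, 668 and 933 CPM in WT and 676, 1193 and 1126 CPM in Cd6-/- replicates, with overlap and a log2 fold change of 0.54 (SE 0.38).

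Receptors and feedback genes of cytokine signaling also lay mostly above 0. Of 24 measured members, 19 were above 0, 7 did not overlap and were higher in Cd6-/- cells, against 1.71% of all genes, and 0 were called. The median was 0.15, and 0.17 without Cd6-/- replicate 3, where that of the mitotic genes was 0.17 too. Il7r, the interleukin 7 receptor, stood at 11.5, 10.4 and 9.32 CPM in WT and 13.6, 15.7 and 15.4 CPM in Cd6-/- replicates. Il4ra, the interleukin 4 receptor, gave 272, 243 and 238 CPM in WT and 293, 301 and 292 CPM in Cd6-/- replicates. Il12rb2, a chain of the interleukin 12 receptor, had the highest log2 fold change, 0.86 (SE 0.37). Cish and Socs3, which dampen cytokine receptor signals, had 0.34 and 0.48.

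Cytokine and helper lineage genes differed one by one rather than as lists. The median of 11 measured cytokines and chemokines was 0.03, with Ifng the highest and Il3 the lowest at -0.39. Il2, the growth factor of activated T cells, stood at 104, 215 and 176 CPM in WT and 65.3, 209.8 and 216 CPM in Cd6-/- replicates, a log2 fold change of -0.01 (SE 0.26). Among 14 lineage transcription factors, 0 were called and the median was 0.03. Eomes, a T-box factor, stood at 11.5, 14.2 and 11.3 CPM in WT and 25.3, 24.1 and 21.0 CPM in Cd6-/- replicates. The Eomes values did not overlap, with a log2 fold change of 0.93 (SE 0.28), an unadjusted edgeR p of 0.00148 and, with the block, an adjusted p of 0.13. Tbx21, the Th1 factor T-bet, gave 43.7, 88.1 and 151 CPM in WT and 51.6, 194 and 214 CPM in Cd6-/- replicates, with overlap.

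Sterol and fatty acid synthesis genes leaned the other way, with 18 of 19 below 0, a median of -0.10 and 0 called. Insig1, a sensor that restrains sterol synthesis, stood at 86.8, 75.9 and 86.4 CPM in WT and 67.4, 64.3 and 73.4 CPM in Cd6-/- replicates. It was the lowest of the list at -0.28 (SE 0.16). Adhesion and migration genes, 25 in number, had a median of 0.04 and 0 called. Of the remaining lists, amino acid and one-carbon, G1 cyclin, heat shock, quiescence and BCL2 family genes had 0 called and medians between -0.01 and 0.04.

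**Figure D4:**
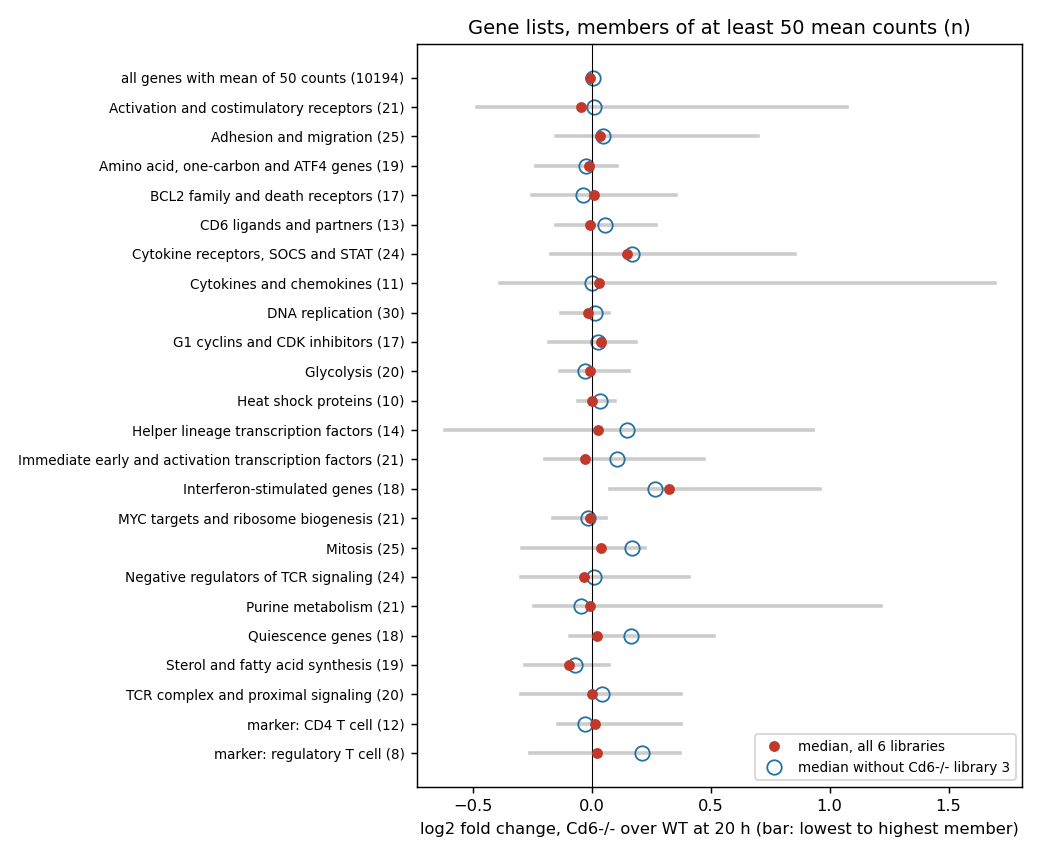
Log2 fold change of Cd6-/- over WT at 20 h (horizontal axis) for the gene lists with 8 or more members of at least 50 mean counts (number in parentheses), without the list of RNAs that lack a poly(A) tail. Filled circles are medians over all 6 libraries, open circles medians without Cd6-/- replicate 3, and bars run from the lowest to the highest member; of the lists drawn, interferon-stimulated genes have the highest median, 0.32.

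Markers of other cells were read as well, and the summed NK cell and gamma delta T cell markers did not overlap between the genotypes. The sum of 10 NK cell markers was 14.4 to 20.3 CPM in WT and 28.7 to 35.6 CPM in Cd6-/- libraries, most of it from Eomes, which T cells also express. The defining markers Klrb1c and Ncr1 were at no more than 0.442 CPM in the 6 libraries, and 7 of the 10 had a mean under 1 CPM in both groups. Sums of 10 gamma delta T cell markers were 18.3 to 21.7 CPM in WT and, lower without overlap, 14.0 to 16.8 CPM in Cd6-/- libraries. Of these 10, 8 had a mean under 1 CPM in both groups. B cell markers summed to between 339 and 421 CPM in WT and between 384 and 427 CPM in Cd6-/- libraries, and 8 of the 16 were under 1 CPM. Myeloid markers summed to between 88.2 and 114 CPM and between 81.7 and 95.9 CPM, dendritic cell markers to between 156 and 244 CPM and between 146 and 257 CPM, and erythroid markers to between 9.67 and 48.7 CPM and between 7.43 and 75.9 CPM. Regulatory T cell markers summed to between 765 and 956 CPM and between 770 and 978 CPM. The part of these cells in any difference was not tested.

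Cells of the same genotypes stimulated for 4 h are separate libraries in which the genes named at 20 h can be looked up. Whether they came from the same mice as the 20 h libraries is not given. Of the 17 named protein-coding genes other than Cd6 and Cd5, 13 had the same direction at 4 h. The share of all genes that did so was not computed. In 5 of the 17 the libraries did not overlap and kept the direction, and 0 did so in the opposite direction. Of all genes, 3.01% were higher without overlap and 4.9% lower. Tspan9 stood at 23.0 to 26.0 CPM in WT and 32.5 to 42.0 CPM in Cd6-/- cells at 4 h. H2-Q6 ran from 42.6 to 58.4 CPM and from 71.9 to 112 CPM. The other 3 were Casp4, with 5.42 to 6.56 CPM and 8.41 to 13.2 CPM, Art2b, with 43.1 to 69.0 CPM and 69.3 to 77.5 CPM, and Fcrl1, with 14.8 to 20.6 CPM and 10.3 to 12.9 CPM.

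Xdh was not among the genes that separated at 4 h. Its mean was 32.7 ± 4.06 CPM in WT and 29.9 ± 5.64 CPM in Cd6-/- cells (SD, n = 3 each), a ratio of 0.916, and at 20 h it was at a lower level in both genotypes. The test of the difference between the 20 h and the 4 h effects called 0 of 32290 genes by edgeR without or with the block, where 523 and 656 genes had an unadjusted p under 0.05. For Xdh that difference was 1.34 (SE 0.32), with an adjusted p of 0.638, or 0.246 with the block.

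Cd6-/- cells were also set against the other knockouts at 20 h, comparisons that share the Cd6-/- libraries with each other and with the comparison above. Against Cd5-/- cells, 33 genes (0.102%) were called, 23 higher and 10 lower in Cd6-/- cells, and 49 (0.152%) with the block. Cd5 was higher by 6.44 (SE 0.40) and Cd6 lower, at -2.13 (SE 0.27). The gene Tspan9 was higher by 1.31 (SE 0.21), with means of 29.2 CPM in Cd6-/- and 11.7 CPM in Cd5-/- cells, and Pros1 by 2.11 (SE 0.40), with means of 97.9 and 22.5 CPM. Eomes was higher by 1.20 (SE 0.28), at 23.5 and 10.2 CPM, with an adjusted p of 0.0494 in edgeR. These 3 were chosen after their values were seen, since CT010467.1, Rn7sk, n-R5-8s1 and Gm24601, high in Cd6-/- replicate 3, took the places after Cd5 by size. Gm8116 (-5.41), Wdfy1 (-3.71) and Gcnt1 (-2.26) were among the lowest, with Orm2, whose mean of 0.0206 CPM in Cd6-/- cells was under the floor, against 0.418 CPM in Cd5-/- cells. For Gm8116, the means were 0.221 CPM in Cd6-/- and 9.60 CPM in Cd5-/- cells, with 0.218 CPM in WT cells, so the departure from WT was in the Cd5-/- line. The substrain gene Wdfy1 had a mean of 16.8 CPM in Cd5-/- cells.

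Against the double knockout, 15 genes (0.0465%) were called, 12 higher and 3 lower, and 19 (0.0588%) with the block. The highest were A430093F15Rik, Cd5, Cd6 and Slc15a3, which lie next to each other on chromosome 19, and n-R5-8s1, which is high in Cd6-/- replicate 3. Cd5 and Cd6 were higher by 11.11 (SE 0.51) and 9.21 (SE 0.39). A430093F15Rik had means of 83.9 CPM in Cd6-/- and 0.00997 CPM in double-knockout cells, and Slc15a3 of 2.32 and 0.0399 CPM, the second value of each being under the floor of 3 counts. Tcrg-C4 (-2.23), Tcrg-C2 (-2.16) and Trdc (-1.39), constant regions of the gamma delta T cell receptor, were lower in Cd6-/- than in double-knockout cells. Trdc had a mean of 4.15 CPM in Cd6-/-, 4.18 CPM in WT and 10.8 CPM in double-knockout cells. Xdh did not differ by the test, at -0.20 (SE 0.22), with means of 5.45 CPM in Cd6-/- and 6.24 CPM in double-knockout cells against 2.35 CPM in WT and 3.86 CPM in Cd5-/- cells. Tspan9 was at 16.8 CPM in double-knockout cells, a log2 difference of 0.79 (SE 0.21) from Cd6-/- cells, with an edgeR adjusted p of 0.316, or 0.0352 with the block. Art2b and H2-Q6 had means of 19.4 and 19.3 CPM in double-knockout cells and were not called against Cd6-/- cells.

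**Figure D5:**
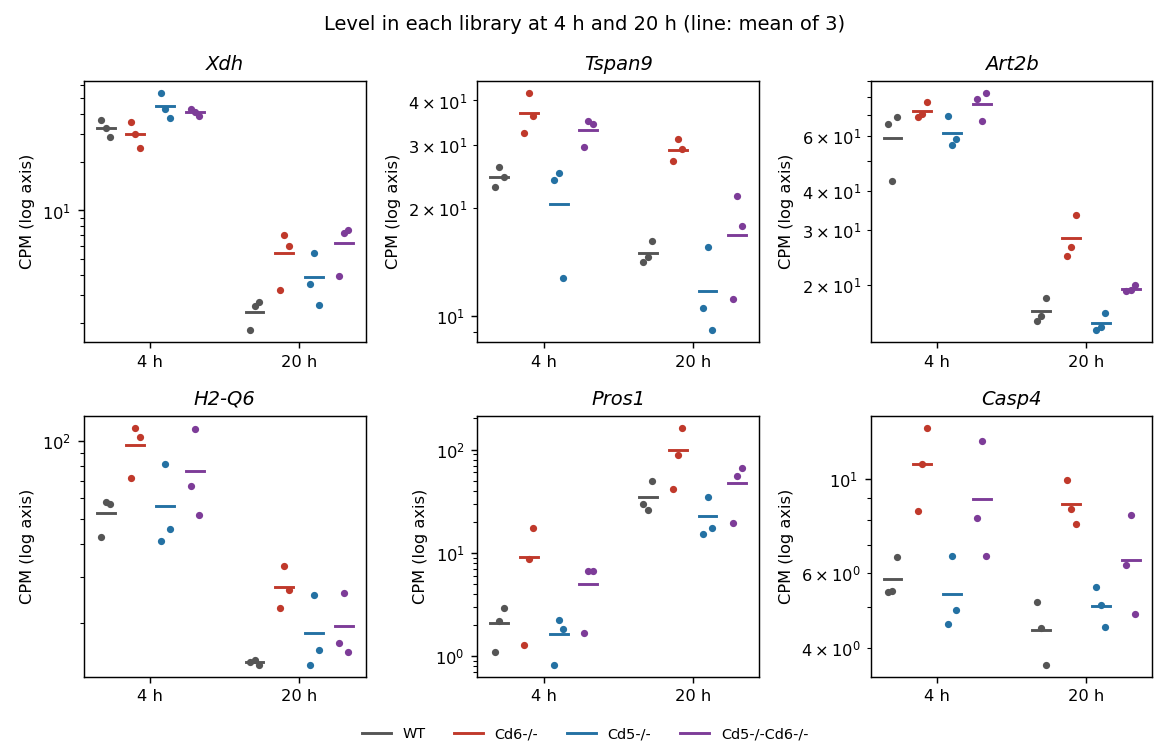
Level in CPM (vertical log axes) of 6 genes in each library of the 4 genotypes at 4 h and 20 h, with a line at the mean of 3. Tspan9, Art2b, H2-Q6 and Casp4 are higher in Cd6-/- than in WT libraries at both times, and Xdh at 20 h.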

How the data were processed

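Single reads of 50 bases were sequenced from stranded mRNA libraries (TruSeq Stranded mRNA) of naive CD4+ T cells. The authors made FASTQ files with bcl2fastq 2.17.1.14, removed adapter dimers with DimerRemover, aligned to GRCm38 (STAR), assigned reads to genes (featureCounts) and deposited the resulting counts without normalization or pooling. The annotation release and the use of strand in counting are not given in the sources used here. All columns of the CD5/CD6 table were matched to samples by their labels, and 55144 of 55385 identifiers were named from the GENCODE annotation of GRCm38.

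Counts were fitted in R 4.3.3 with edgeR 4.0.16 (TMM factors, quasi-likelihood test, Benjamini-Hochberg adjustment) over all 36 libraries, with 1 coefficient for each genotype and time and the 32290 genes with at least 1 read. Calls required both an adjusted p under 0.05 and a change of more than 2-fold. The authors' own tool was DESeq2, which was run as an alternative (1.42.0). No 2 replicates of the comparison agreed within sampling noise (chi-square divided by its degrees of freedom, 29.0 to 151).

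The labels give replicate numbers without saying what they share. Deviations from the group means over 10194 genes correlated at 0.753, 0.314 and 0.825 between the WT and Cd6-/- libraries numbered 1, 2 and 3, and at most 0.225 between libraries of different numbers, so the numbers were taken as pairs in the block.

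The genes named were Cd6, Cd5 and their neighbors within 500 kb, every gene called with or without the block, up to 8 genes per direction by size of change among those with at least 50 mean counts, the same direction in 3 of 3 replicate numbers and an unadjusted p under 0.01, in each list the called, most abundant or most changed members, and up to 5 called genes per direction in the other comparisons. Eomes beyond its list, and the genes of the added block fits, were chosen after their values were seen. The comparison, the gene lists and the tests were chosen with earlier results of these data known. Guide sequences were taken from the study's methods and matched to the reference genome.

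The procedure was tested on simulated counts for this comparison over 31771 genes, where an adjusted p under 0.05, with no limit on the fold, was reached by 19 of 50 genes changed by 1.5-fold, 47 of 50 by 2-fold, 50 of 50 by 3-fold and 8 unchanged genes. The simulated counts had no effect of replicate number and no deviating library. For the changed genes, the spread was set below the common dispersion of 0.0485 in the data. The shares reached can therefore be higher than they would be in the data.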

Additional observations from a re-analysis of the deposited data

How the results depend on the processing

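Cd6 kept its direction under every alternative run, from -1.93 to -1.73 when a replicate was left out, and it lost its call only with edgeR's filter on low counts, filterByExpr (-1.82), where 0 genes were called; the cause was not tested. The count of 6 genes for Cd6-/- against WT was 3 with library totals in place of TMM factors, 1 with the 20 h or the compared libraries alone, and 11 without the replicate 2 libraries of unstimulated Cd5-/- and Cd6-/- cells, whose Cd5 and Cd6 levels go against their labels. It ran from 1 to 18 when a replicate was left out, with 1 without Cd6-/- replicate 3 and 18 without replicate 3 of both genotypes. It was 6 with RLE factors and 4 with DESeq2. With the replicate block it was 8, with the block and 20 h libraries alone 37, with a robust spread 23, without Cd6-/- replicate 3 either 1 (all libraries) or 15 (20 h), and 5 without the unstimulated replicates 2. The block fits other than the first were chosen after seeing the data.

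Without Cd6-/- replicate 3, 3 genes turned: Gm24601 to -0.27 (-0.33 and -0.20 with the block over all or 20 h libraries), Rn7sk to -1.15 (-0.83 and -0.20) and CT010467.1 to -0.26 (-0.08 with the block). Without replicate 3 of both compared groups, WT and Cd6-/- at 20 h, they were at -0.49, -0.30 and -0.05. With other replicates left out they reached 4.85, 4.47 and 4.78.

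The difference from the 4 h effect had 0 calls, 3 without the unstimulated replicates 2, and 0 to 18 with a replicate left out. Against Cd5-/- cells, 33 genes became 16 with library totals, 9 with the filter, 15 with 20 h libraries, 16 with the compared libraries and 65 without the unstimulated replicates 2 (53 with the block), 147, 121 and 108 with the 20 h block, its robust spread and without Cd6-/- replicate 3, and 25 to 49 with a replicate left out. Against the double knockout, 15 became 7 with the filter, 9 with 20 h libraries and 7 with the compared libraries, 24 with the block without Cd6-/- replicate 3, 73, 61 and 61 with the same 3 fits of the 20 h block, and 13 to 25 with a replicate left out. At 3 replicates and this depth, 19 of 50 genes simulated with a 1.5-fold change reached an adjusted p under 0.05. The spread set for those genes was below the common dispersion of the data. The block over all libraries added Pros1 and Gm26917 to the calls against WT and changed no other. For single genes, 440 of the recomputed values kept side and direction, 38 lost and 39 gained the threshold and 11 reversed, while 542 of the list medians moved by less than the spread between replicates and 118 by more.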
